A study of Mus musculus with 3 samples.

Results

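Surrogate light chain positive cells are the B cell precursors of the marrow that transcribe Vpreb1, Vpreb2 and Igll1. They were chosen here from droplet 3' single-cell RNA counts of mouse bone marrow. A cell was kept if it held at least 1000 unique molecular identifiers (UMIs, each standing for 1 captured transcript), at least 400 detected genes and at most 10% mitochondrial UMIs. It entered the gate if it had at least 5 UMIs of Vpreb1, Vpreb2 and Igll1 together, at least 1 UMI each of Cd79a and Ebf1, and 0 UMIs of Ighd. The gate held 116 of 22376 kept cells, which were 26 of 7538 in fusion replicate 1, 32 of 7213 in fusion replicate 2 and 58 of 7625 in wild type. Levels of these 6 gate genes chose the cells, so they are described without a test.

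The study asks how ZNF384 fusion proteins change blood cell lineage. Its single-cell series holds 2 libraries from mice of genotype Ep300-Znf384-V5-HA, a fusion of the Ep300 acetyltransferase gene with the zinc finger gene Znf384 carrying V5 and HA tags, and 1 library labelled Wild type. All 3 came from male mice aged 6 weeks. Marrow of femur and tibia was freed of red cells, and each library joined 5000 live cells sorted from whole marrow with 5000 live cells sorted after lineage depletion, so shares of cells are shares of that mixture. No promoter or Cre that would limit where the fusion is made is named in the sources used here, and the files hold no feature for the fusion or its tags. Ep300 counts in the gate, at 57.0 and 67.4 CPM (the gene's summed UMIs scaled to the library's summed UMIs with TMM factors) in fusion replicates 1 and 2 and 91.6 in wild type, do not check the genotype.

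In a developing B cell, Ebf1 and Pax5 switch on the B lineage genes while Rag1 and Rag2 join the segments of the immunoglobulin heavy chain and Dntt, terminal deoxynucleotidyl transferase, adds bases at the joins. The finished heavy chain pairs with the surrogate light chain, made of a VpreB protein and the Igll1 protein, and is held at the surface by Cd79a and Cd79b as the pre-B cell receptor. Signals from this receptor and from the interleukin-7 receptor drive a burst of division, after which the surrogate light chain genes are shut off and the light chain genes are joined.

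Vpreb1 (ENSMUSG00000059305) lies on chromosome 16 at 16868403 to 16870843 and Igll1 (ENSMUSG00000075370) beside it at 16860671 to 16863985. Vpreb2 (ENSMUSG00000059280) lies at 17980428 to 17981273 of the same chromosome (GRCm38). The Vpreb1 and Vpreb2 transcripts share 740 of 759 aligned positions, and 288 of the last 300, where 3' reads fall. Assignment of a UMI to Vpreb1 or Vpreb2 is therefore uncertain, and the gate used the sum. Windows of 30 bases from the promoters are printed because they show how alike Vpreb1 and Vpreb2 are, and because E proteins, the factors that act with Ebf1 at these genes, bind E-boxes. Capitals mark the E-box searched, CAGGTG or its reverse complement CACCTG, on both strands in the 250 bases before each start (RefSeq, GRCm38.p6). The windows are, in order, chr16:16869326-16869355 (minus strand), chr16:17980321-17980350 (plus), chr16:16863976-16864005 (minus), chr7:24897331-24897360 (plus) and chr2:101649650-101649679 (minus).
Vpreb1: atgacgttccagCAGGTGcttcctcccaga
Vpreb2: atgactttccagCAGGTGcttcctcccaga
Igll1: gctacacagatcCACCTGcactggaatagc
Cd79a: ttgtggccagccCAGGTGcagggcagttcc
Rag1: ttcctgaagagcCAGGTGccagctggagct

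The Vpreb1 and Vpreb2 windows were identical at 29 of 30 bases. Distances are from the RefSeq starts, which need not match the ends of the spans above, taken from another annotation: the window of Vpreb1 lies inside its span, and the RefSeq start of Vpreb2 does too. The motif began 88 bases before the start of Vpreb1, 232 before Vpreb2, 8 before Igll1, 154 before Cd79a and 135 before Rag1. Of the 7 genes searched (these 5, Ebf1 and Dntt), 5 held it, beside 5657 of 32851 promoters of all genes (17.2%). A match is a description of letters and not a bound site. The table had no entry for Ly6d and Socs2.

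Of the 10 pro-B markers, the gate used Vpreb1, Igll1 and Ebf1, so only the other 7 bear on the label. All 7 were detected, at a summed 3322, 3246 and 3007 CPM in fusion replicate 1, fusion replicate 2 and wild type, an order kept for every triple of values that follows. The same sum was 2822, 2677 and 2136 CPM in later B cells, which have Cd79a and Cd79b but fewer than 5 surrogate light chain UMIs and no Ighd, and 290.1, 243.4 and 365.2 CPM in T cells (at least 2 UMIs of Cd3 genes). In the gate Pax5, which holds cells to the B lineage, was at 434.4, 353.1 and 331.8 CPM. All 5 T cell markers (Cd3e, Cd3d, Cd3g, Trbc2 and Cd8a) were at 0, as were Ighd, which the gate required, and Fcer2a of mature B cells, Ncr1 of NK cells, Siglech of plasmacytoid dendritic cells and Ppbp of megakaryocytes. A count of 0 allows up to 3 counts per library.

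Depth differed between the libraries. Gated cells held a median of 5830, 12024 and 6944 UMIs and a summed 268325, 375984 and 687893 UMIs, so the wild-type sum was the deepest and fusion replicate 1 had the shallowest. Barcodes shared by pairs of libraries numbered 19 to 23, and 0 of the gated cells had a barcode shared with another library. A doublet caller (scrublet) marked 2, 2 and 1 of the gated cells. They were kept.

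The gated cells also held transcripts of other marrow cells, and the libraries differed in them. The 6 neutrophil markers summed to 818.9, 9931 and 4064 CPM, which was 1.81%, 18.1% and 6.54% of their level over all kept cells. Most of this sat in few cells. Of the 2607 S100a8 and S100a9 UMIs in fusion replicate 2, 2426 were in 1 cell, and of the 2327 in wild type, 1889 were in 2 cells. Granulocyte progenitor markers (Elane, Mpo, Prtn3, Ms4a3 and Ctsg) summed to 67.7 and 64.7 CPM in the fusion libraries and 343.8 in wild type. Erythroid markers summed to 879.5, 237.2 and 217.7 CPM and basophil markers to 644.5, 18.9 and 313.8 CPM. The part of these transcripts in the results was tested only by leaving out the 3 cells with at least 50 UMIs of S100a8 and S100a9.

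The marrow mixture of each fusion library held proportionally fewer surrogate light chain positive cells than that of wild type. The share was 0.345% (95% exact Clopper-Pearson interval 0.225 to 0.505) in fusion replicate 1, 0.444% (0.304 to 0.626) in fusion replicate 2 and 0.761% (0.578 to 0.982) in wild type. Both fusion values lay below the wild-type value, with the interval of replicate 2 overlapping that of wild type. The fusion mean was 0.394% ± 0.070 (SD, n = 2), a ratio to wild type of 0.518. An exact two-sided permutation test over the 3 possible labellings gave p = 0.333, the smallest it allows, so no share could pass a threshold of 0.05 here. Intervals cover counting error only.

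Among B lineage cells the share did not stand apart between the libraries. Of gated, later B and Ighd-positive B cells together (246, 259 and 580), the gated cells were 10.6% (7.02 to 15.1), 12.4% (8.61 to 17.0) and 10.0% (7.68 to 12.7). These intervals overlapped. Set against Ighd-positive B cells alone, there were 0.400 and 0.405 gated cells for each in the fusion libraries and 0.269 in wild type. Those B cells needed at least 1 UMI each of Cd79a, Cd79b and Ighd and had no surrogate light chain limit. Cells kept out of the gate only by an Ighd UMI could therefore be among them. The fusion mean of the ratio to Ighd-positive B cells was 1.5 times wild type, again with an exact two-sided permutation p of 0.333. With the gate set on cells thinned to 3000 UMIs it was 1.49 times (p = 0.667, exact permutation). The ratios were then 1.0, 0.567 and 0.527. Fusion replicate 1 was at 1.90 times wild type and fusion replicate 2 at 1.07 times.

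**Figure D1:**
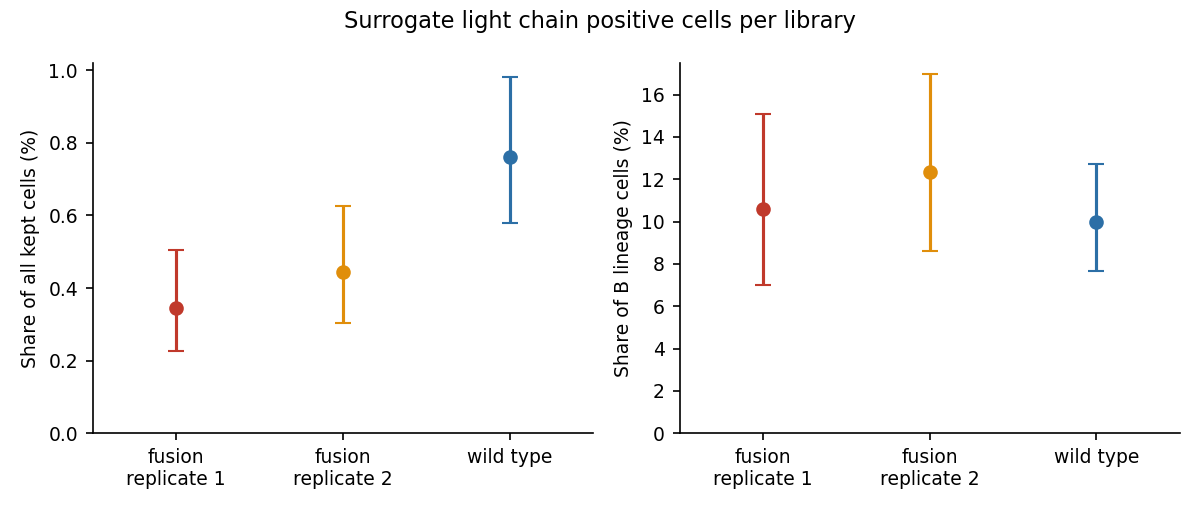
Surrogate light chain positive cells in each library, as the percentage of kept cells and of B lineage cells, with 95% Clopper-Pearson intervals. The share of kept cells is lowest in the fusion libraries (0.345% and 0.444% against 0.761%). The intervals of the share of B lineage cells overlap (10.6% and 12.4% against 10.0%).

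Single gated cells held 5 to 45 surrogate light chain UMIs in fusion replicate 1 (median 24.5), 7 to 48 in fusion replicate 2 (median 22) and 5 to 59 in wild type (median 22). Few lay at the edge of the rule. Cells with 5 to 6 UMIs numbered 1, 0 and 3, and cells that met the other conditions with 3 to 4 UMIs numbered 3, 4 and 7. The requirement of 0 Ighd UMIs kept out 6, 12 and 16 cells that met every other condition.

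**Figure D2:**
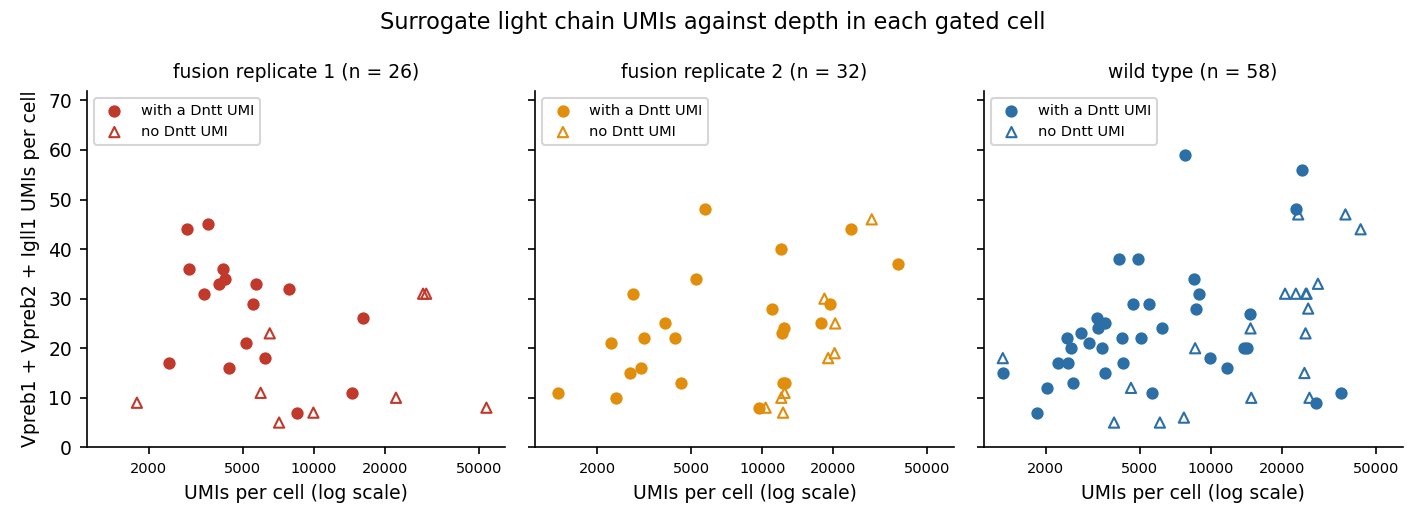
Each point is 1 gated cell, with UMIs per cell on a logarithmic horizontal axis and the sum of Vpreb1, Vpreb2 and Igll1 UMIs on the vertical axis, by library, with cells marked by whether they hold a Dntt UMI. Cells with a Dntt UMI (17 of 26, 23 of 32 and 38 of 58) sit at lower depth than those without.

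As a description of the chosen cells, Vpreb1 stood at 1107, 962.3 and 1046 CPM, Vpreb2 at 203, 161.7 and 156.1 CPM, and Igll1 at 840.3, 832.9 and 869.2 CPM. In later B cells Vpreb1 was at 21.1, 19.9 and 12.6 CPM. Vpreb3, which is related to the VpreB genes and was no part of the gate, was at 1424, 1563 and 1576 CPM. Cd79b, the second signalling chain of the receptor, was at 452.2, 460.9 and 463.9 CPM, and Ighm, the heavy chain, at 1428, 1887 and 1881 CPM. No gene of the surrogate light chain and pre-B receptor list outside the gate (3 tested) passed the test between genotypes, with a median log2 fold change of −0.08 beside 0.02 over all genes tested.

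The gate held cells with and without transcripts of the joining machinery. Of the gated cells, 17 of 26, 23 of 32 and 38 of 58 held a Dntt UMI. These cells were the shallower ones, with medians of 4387, 5722 and 4478.5 UMIs against 9971, 18341 and 23195.5 in cells with no Dntt UMI, so the missing UMIs do not go with low depth. Rag1 was at 934, 324.6 and 188.3 CPM in cells with Dntt and at 12, 0 and 2.56 CPM in cells without. Erg, a transcription factor of early B precursors, was at 245.8, 121.7 and 171.5 CPM with Dntt and at 0, 6.49 and 2.56 CPM without. In all 3 libraries Rag1 and Erg were near 0 in the cells without Dntt. Blnk, the adaptor that carries the receptor's signal, was at 393, 424 and 410 CPM with Dntt and at 60, 103.8 and 76.8 CPM without. Vpreb1 was at 2448, 1258 and 1614 CPM with Dntt and 372, 506 and 556 CPM without. Cd24a, a surface protein of B precursors, ran the other way, from 816, 554.5 and 699 CPM with Dntt to 966, 2005 and 1473 CPM without. Malat1, a nuclear RNA, was at 12570, 11180 and 14800 CPM with Dntt and at 4615, 3763 and 3896 CPM without. The cells were split by their own counts, so these differences have no test, and these CPM carry no TMM factor.

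**Figure D3:**
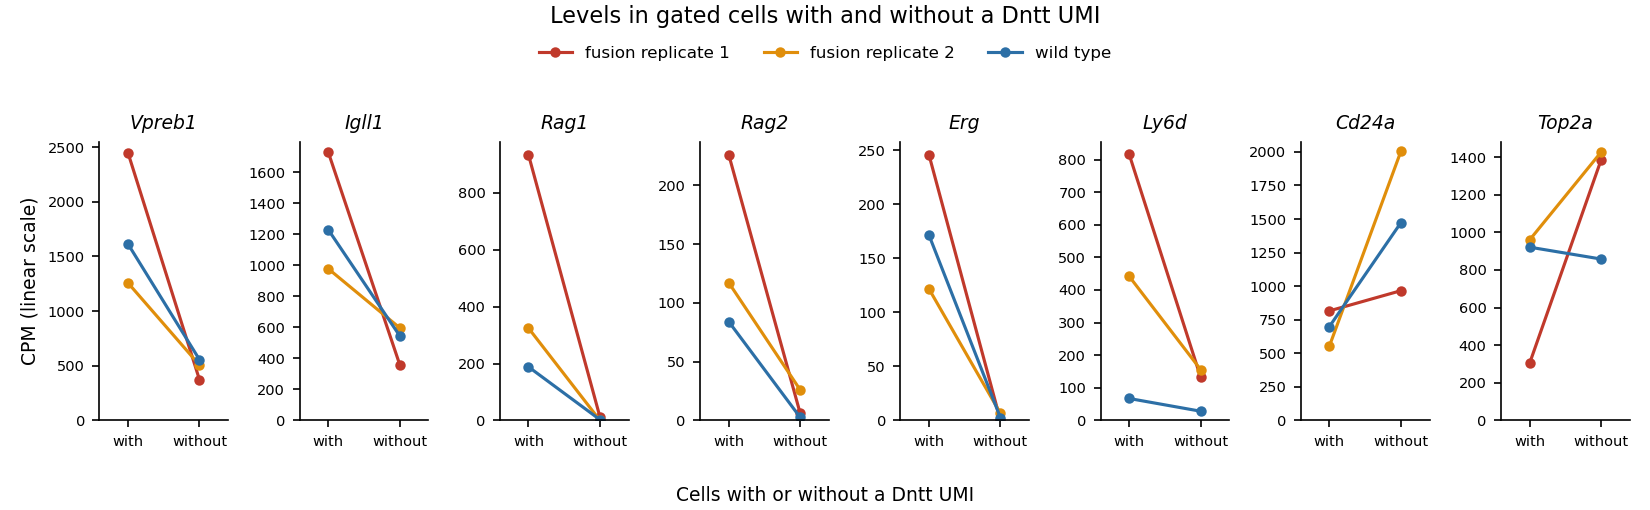
CPM of summed gated cells with and without a Dntt UMI, 1 line per library, on linear axes that start at 0. Rag1 falls from 934, 324.6 and 188.3 CPM to 12, 0 and 2.56 CPM, while Cd24a is higher without Dntt in all 3 libraries.

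A UMI of Mki67 or Top2a, both made in dividing cells, was found in 22, 22 and 41 of the gated cells, and 13, 13 and 24 cells held one together with Dntt. Mki67 was at 1157, 1140 and 1030 CPM and Top2a at 933, 1167 and 914 CPM. To compare shares at equal depth, each cell was thinned at random to 3000 UMIs, leaving 22, 27 and 48 cells (4, 5 and 10 were too shallow). The share with Mki67 or Top2a was then 77.3%, 70.4% and 72.9%, with the wild-type library between the fusion libraries. In T cells at the same depth it was 37.5%, 37.7% and 31.0%. T cells may divide themselves, so they give no clear background for it. Whether each gated cell with a UMI was dividing was not tested.

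The shares of cells with a UMI of each stage gene were tested over the 3 labellings alone, so they are a description. Dntt was found in 63.6%, 59.3% and 52.1% of thinned cells and unthinned in a fusion mean of 68.6% against 65.5%. The difference of 9.36 points had an exact two-sided permutation p of 0.333, the smallest possible. Rag1 was found in 63.6%, 37.0% and 29.2% (p = 0.667, exact permutation), and Il7r, the interleukin-7 receptor, in 59.1%, 48.1% and 43.8% (p = 0.667, exact permutation). Ighm was found in 90.9%, 96.3% and 95.8%. Igkc, the light chain that follows later, was found in 31.8%, 29.6% and 29.2%. In T cells at this depth, as a background, Ighm was found in 32.5%, 52.8% and 52.7%, Dntt in 15%, 5.66% and 5.43%, and Igkc in 2.5%, 0% (an upper 95% bound of 6.72%) and 11.6%. T cells may transcribe Il7r themselves, so they give no background for it. For Dntt, Rag1 and Il7r both fusion libraries lay above wild type, and for Rag1 the fusion libraries lay further apart than the nearer of them lay from wild type.

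**Figure D4:**
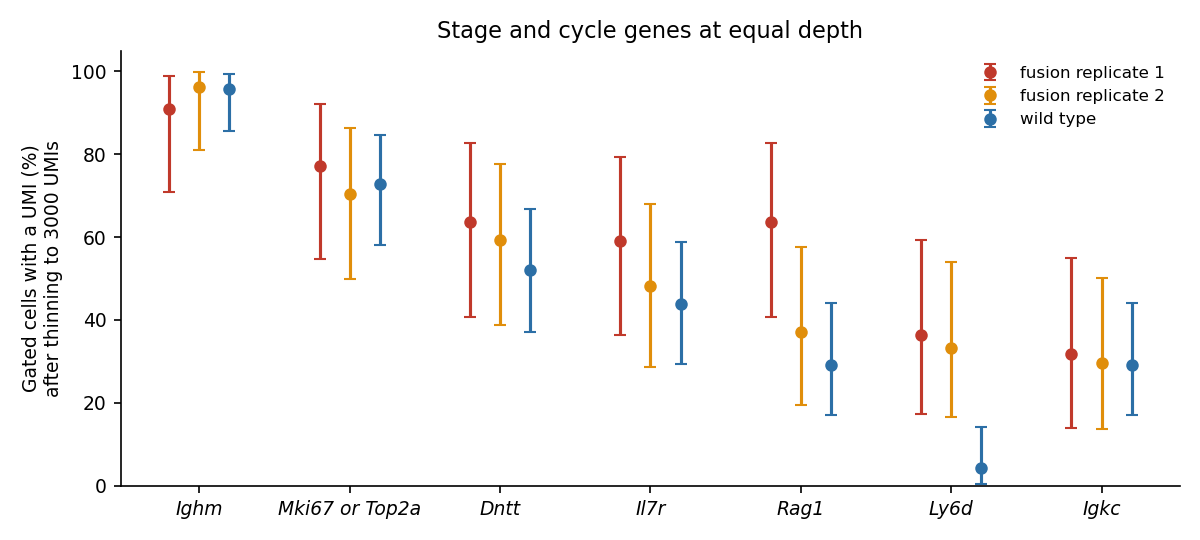
Percentage of gated cells with at least 1 UMI of each stage or cycle gene after thinning to 3000 UMIs, by library, with 95% Clopper-Pearson intervals. Intervals of the 3 libraries overlap for Dntt (63.6%, 59.3% and 52.1%) and for Mki67 or Top2a (77.3%, 70.4% and 72.9%).

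To find genes that differed between genotypes, UMIs of the gated cells were summed per library and tested with edgeR's quasi-likelihood test, with Benjamini-Hochberg adjustment over 6085 genes and a threshold of 0.05. Called genes numbered 31 (0.509% of genes tested), 19 higher in fusion (0.312%) and 12 lower (0.197%), and 351 (5.77%) had an unadjusted p under 0.05. The B lineage genes Ly6d and Rag1 and the cytokine inhibitor Socs2 rose in fusion, and the interferon-induced genes Ifi209 and Ifi27l2a and the ribosome assembly genes Heatr1 and Bms1 fell. The spread came from the 2 fusion libraries alone (1 residual degree of freedom), and the labels do not say that the libraries are from separate animals, so p-values measure spread between samples that may be technical. Genotype cannot be told apart from the single wild-type library. DESeq2 called 2 genes of the 31, Ly6d and Retnlg. Without the 3 neutrophil-rich cells edgeR called 0 genes (254 at an unadjusted p under 0.05), with the smallest adjusted p at 0.0516. The log2 fold changes of Selenom (2.55), Socs2 (1.95) and Rag1 (1.78) stayed about as large, while the neutrophil gene Ngp lost its rise. The prior degrees of freedom for the spread of the genes went from infinite, which gives all genes the same trended spread, to 7.19. Why the calls were lost was not tested. One edgeR fit over 5 cell gates together also called 0 (525 at an unadjusted p under 0.05).

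Ly6d (ENSMUSG00000034634), a surface protein that marks lymphoid progenitors turning to the B lineage, rose with the smallest adjusted p of the genes that met the naming rule. It was at 373.9 and 328.9 CPM in the fusion libraries and 46.5 CPM in wild type. Both fusion libraries were far above wild type and close to each other. The log2 fold change was 2.91 ± 0.38 (SE), with an adjusted p of 3.09e-11 by edgeR and 0.0012 by DESeq2, both Benjamini-Hochberg. Without the 3 neutrophil-rich cells it was 2.90 with an adjusted edgeR p of 0.0516, and over the alternatives the adjusted p ranged from 2.12e-11 to 0.863. Ly6d UMIs were in 9 of 26, 14 of 32 and 12 of 58 cells, and the highest single cell gave 41.0%, 26.2% and 41.9% of them. In the fusion libraries these top cells held 43 and 32 Ly6d UMIs, with 0 UMIs assigned to Vpreb1 and 5 and 8 to Vpreb2. Another cell of fusion replicate 1 held 25 Ly6d UMIs, with 0 of Vpreb1 and 7 of Vpreb2. Vpreb1 was found in 24 of 26, 31 of 32 and 58 of 58 gated cells. The part of the cells without Vpreb1 in the Ly6d rise was not tested. At equal depth 36.4% (17.2 to 59.3), 33.3% (16.5 to 54.0) and 4.17% (0.509 to 14.3) of gated cells held a Ly6d UMI. Thinned to 2000 UMIs the shares were 20% (6.83 to 40.7), 22.6% (9.59 to 41.1) and 9.09% (3.02 to 20), with overlapping intervals, and the difference went from 30.7 to 12.2 points. In T cells thinned to 3000 UMIs the share was 9.08% as the fusion mean and 3.10% in wild type. Whether T cells transcribe Ly6d themselves was not tested. Ly6d was higher in fusion among cells with Dntt (816, 441.8 and 67.2 CPM) and among cells without it (132, 155.7 and 28.2 CPM), a split with no test. The gene lies on chromosome 15 at 74762056 to 74763620 (GRCm38), 6.82 Mb from Ep300, the gene named in the fusion genotype.

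Of the recombination genes, Rag1 (ENSMUSG00000061311), the recombinase subunit that cuts DNA, was at 345.4 and 194.1 CPM in fusion and 85.6 CPM in wild type. The fusion libraries differed from each other but both were above wild type. Rag1 rose by a log2 fold change of 1.64 ± 0.33 (SE; edgeR adjusted p = 4.18e-04), and by 1.18 and 2.0 with 1 or the other fusion library left out. Its partner Rag2 was at 85.5, 80.9 and 39.0 CPM, with a log2 fold change of 1.08 ± 0.38 that did not pass (edgeR adjusted p = 0.350). Dntt was at 665.8, 576.9 and 457.9 CPM and did not pass (edgeR adjusted p = 0.992). Of 11 recombination genes tested, 1 rose and 0 fell, and the median log2 fold change was −0.08. Of 14 genes of the early pro-B stage, 2 rose (Ly6d and Rag1) and 0 fell, with a median of 0.22. Ly6d was higher in later B cells (1906, 1792 and 1042 CPM) than in the gate, so its rise does not place the gated cells at an earlier stage. Over all genes 0.312% rose, 0.197% fell and the median was 0.02, and 1 called gene in a list this short is no result about the list.

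Socs2 (ENSMUSG00000020027), which dampens cytokine receptor signalling, was at 160.2 and 142.9 CPM in fusion and 39.0 CPM in wild type, with no overlap. It rose by 1.95 ± 0.39 (log2, SE; edgeR adjusted p = 2.79e-04). Of 12 genes of interleukin-7 and other cytokine signalling tested, Socs2 was the 1 that rose and 0 fell. In 7 of the 12 both fusion libraries were above wild type and in 1 both were below, beside 31.5% above and 31.1% below over all genes. The list median was 0.29 against 0.02 over all genes. Il7r itself was at 192.3, 226.4 and 267.2 CPM.

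The other named genes that rose belong to no list used here, apart from Klf2 of the immediate early list. Selenom, a selenoprotein of the endoplasmic reticulum, was at 113.9, 115.9 and 24 CPM (log2 fold change 2.25 ± 0.42 SE, edgeR adjusted p = 5.09e-05). Rilpl2, a protein of membrane traffic, was at 113.9, 199.5 and 43.5 CPM (1.87 ± 0.38, edgeR adjusted p = 3.60e-04). Myh10, a nonmuscle myosin heavy chain, was at 46.3 and 53.9 CPM in fusion and 3 CPM in wild type, which is 2 UMIs, so its fitted log2 fold change of 3.95 ± 0.86 (edgeR adjusted p = 0.00157) rests on few counts. All 3 genes had both fusion libraries above wild type. Rgcc, a regulator of the cell cycle, was at 85.5, 70.1 and 18.0 CPM, and Klf2, a transcription factor of resting lymphocytes, at 117.5, 97.0 and 34.5 CPM. Fuca1, a lysosomal fucosidase, was at 71.2, 64.7 and 19.5 CPM and Carhsp1, an RNA-binding protein, at 71.2, 80.9 and 25.5 CPM. These 4 rose by 1.57 to 2.08 on the log2 scale, with edgeR adjusted p between 0.00114 and 0.0320. Selenom and Rilpl2 kept their call in 8 of 11 alternative settings and Carhsp1 in 2. With the gate set on cells thinned to 3000 UMIs the log2 fold changes were 0.42 for Rgcc, 0.38 for Klf2 and 0.95 for Fuca1, each with an edgeR adjusted p of 0.998.

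Among the genes that fell, Ifi209, of the interferon-inducible DNA-sensing family, was at 35.6, 24.3 and 106.6 CPM (log2 fold change −1.85 ± 0.38 SE, edgeR adjusted p = 5.71e-04). Ifi27l2a, another interferon-induced gene, was at 92.6, 67.4 and 190.7 CPM (−1.27 ± 0.33, edgeR adjusted p = 0.0269). Neither gene reached its wild-type level in a fusion library. Of 6 interferon response genes tested out of 18, 1 fell and 0 rose, 4 had both fusion libraries below wild type and 0 had both above, and the median was −0.48. Over all genes 0.197% fell, 31.1% had both fusion libraries below wild type and 31.5% both above. Heatr1, which serves ribosomal RNA synthesis, was at 28.5, 32.4 and 84.1 CPM and Bms1, a GTPase of ribosome assembly, at 49.9, 43.1 and 118.6 CPM. They fell by 1.45 and 1.36 on the log2 scale (edgeR adjusted p = 0.0430 and 0.0391), calls kept in 1 and 2 of the 11 alternatives, and Bms1 was at −0.51 with the gate after thinning. Atp5md, a small subunit of ATP synthase, was at 146, 331.6 and 564.5 CPM (−1.22 ± 0.31, edgeR adjusted p = 0.0211). Eif3j1, a translation initiation subunit, was at 74.8, 153.6 and 262.7 CPM (−1.16 ± 0.30, edgeR adjusted p = 0.0257). For Atp5md and Eif3j1 fusion replicate 1 was lowest, and without it they were at −0.77 and −0.77, against −1.96 and −1.82 without fusion replicate 2. The short ribosomal genes Rps29 (2204, 7143 and 8338 CPM) and Rpl38 (1374, 3464 and 4547 CPM) were also lowest there, and their part in the result was not tested.

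The naming rule leaves out mitochondrial and predicted genes, and of these mt-Nd4l (92.6, 121.3 and 270.2 CPM, log2 fold change −1.32) and 1810059H22Rik (3.56, 53.9 and 115.6 CPM, −1.86) also fell (edgeR adjusted p = 0.00452 and 3.60e-04). 1810059H22Rik was at −1.10 without fusion replicate 1 and −4.93 without fusion replicate 2. The remaining 4 of the 10 places for genes that fell went to genes that missed the threshold. Fos, an immediate early factor, was at 10.7, 8.09 and 45.0 CPM (log2 fold change −2.25, edgeR adjusted p = 0.354). Ifi30, a lysosomal reductase, was at 7.12, 5.39 and 30.0 CPM (−2.23, edgeR adjusted p = 0.975). Endog, a mitochondrial nuclease, was at 7.12, 8.09 and 34.5 CPM (−2.13, edgeR adjusted p = 0.881), and Bcat1, a branched-chain amino acid transaminase, at 17.8, 13.5 and 54.1 CPM (−1.79, edgeR adjusted p = 0.188). All were under 20 CPM in both fusion libraries, so few UMIs carry them.

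**Figure D5:**
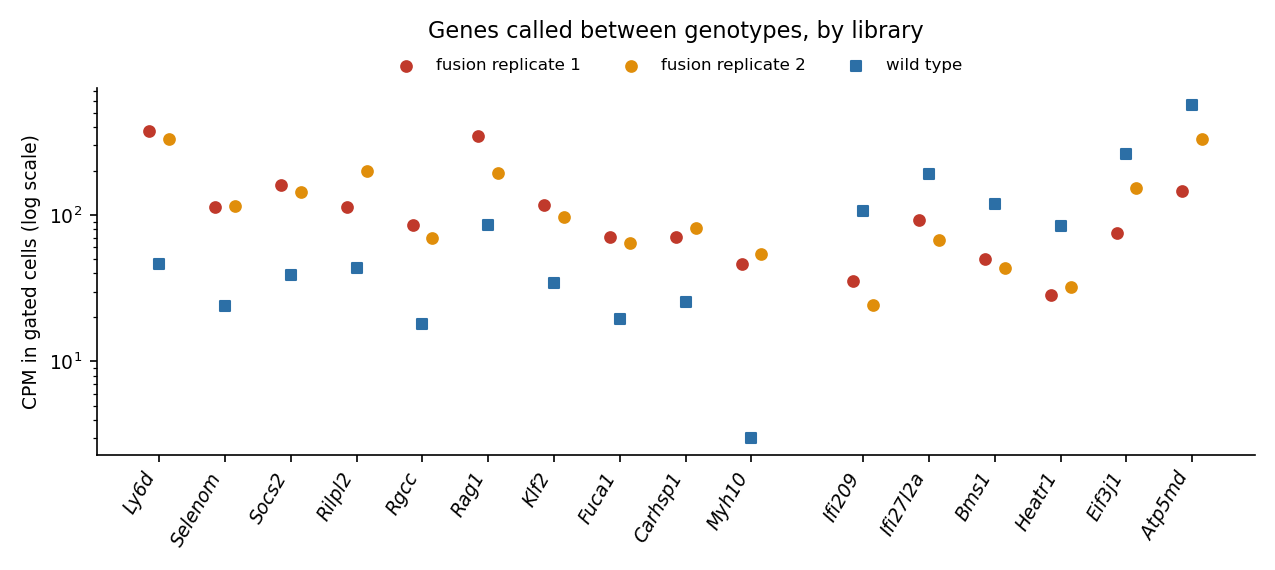
CPM of gated cells on a logarithmic axis for the called genes described, 1 point per library. Ly6d stands at 373.9 and 328.9 CPM in fusion against 46.5 in wild type, and Ifi209 at 35.6 and 24.3 CPM against 106.6.

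Of the 31 called genes, 8 had levels under 20% of those over all kept cells of the same libraries and are transcripts that other marrow cells hold in plenty. Prtn3 and Mpo, granule proteases and peroxidase of granulocyte progenitors, had 2, 4 and 80 UMIs and 8, 12 and 100 UMIs, and fell by 3.67 and 2.28 on the log2 scale (edgeR adjusted p = 1.13e-11 and 1.42e-06). At equal depth Elane or Mpo was found in 18.2%, 18.5% and 41.7% of gated cells, and in T cells in a fusion mean of 15.4% and 32.6% of wild type. Camp and Ngp, neutrophil granule genes, had 30, 528 and 73 UMIs and 19, 450 and 79 UMIs. A single cell of fusion replicate 2 held 97.0% and 97.6% of its UMIs of these genes. Retnlg, another neutrophil gene, had 7, 3 and 197 UMIs, with 56.3% of the last in 1 wild-type cell.

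The other B lineage lists held no called gene, where 0.509% of all genes were called and 5.77% had an unadjusted p under 0.05. Lists of this length would hold few calls at those rates, so the counts say little about them. Of 26 transcription factors of the B lineage tested, edgeR called 0 (4 at an unadjusted p under 0.05, 2 in each direction) with a median of −0.03. Sox4, a factor of pro-B survival, was at 480.7, 452.9 and 292.8 CPM (log2 fold change 0.67, edgeR adjusted p = 0.812). Lef1, a factor of pro-B growth, was at 292, 180.6 and 406.8 CPM (−0.80, edgeR adjusted p = 0.524). Of 18 genes of pre-B receptor signalling, edgeR called 0 (3 at an unadjusted p under 0.05) and the median was −0.12. Of 9 adhesion genes, edgeR called 0 (2 at an unadjusted p under 0.05), and the integrin Itga4 was at 138.9, 124 and 241.7 CPM (−0.88, edgeR adjusted p = 0.299). Of 9 later pre-B genes edgeR called 0 (2 at an unadjusted p under 0.05). Of 9 apoptosis genes it called 0 (1 at an unadjusted p under 0.05), with the survival gene Bcl2 at 21.4, 16.2 and 57.1 CPM. DESeq2 called none of these genes.

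The lists of division genes also held no called gene. Of 41 S phase genes tested edgeR called 0 (2 at an unadjusted p under 0.05) and the median was −0.09. Of 52 genes of G2 and M phase it called 0 (5 at an unadjusted p under 0.05), but 30 had both fusion libraries above wild type and 5 both below, beside 31.5% and 31.1% of all genes, with a median of 0.19. Ccnd2, a cyclin of early B precursors, was at 470, 450.2 and 264.2 CPM (log2 fold change 0.80, edgeR adjusted p = 0.580). Of 14 metabolic and stress genes edgeR called 0 (2 at an unadjusted p under 0.05), with 11 below wild type in both fusion libraries, 1 above and a median of −0.43. DESeq2 called none here either.

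The difference between genotypes was then set against that in later B cells (155, 148 and 306 cells), by an edgeR interaction term with library as a block. It called 32 of 8817 genes (0.363%), and 519 (5.89%) had an unadjusted p under 0.05. The term was positive for 19 (0.215%), where the log2 change from wild type to fusion was higher in the gate than in later B cells. For 13 (0.147%) the term was negative. A positive term need not mean a higher level in fusion gated cells than in wild type. For Dntt the genotype difference itself differed between the gate and later B cells. In the gate, where it did not pass between genotypes, it was at 665.8, 576.9 and 457.9 CPM, and in later B cells at 9.39, 12.6 and 75.9 CPM. The interaction was 3.16 ± 0.37 (log2, SE; edgeR adjusted p = 4.72e-14). Over all kept cells Dntt was at 19.9, 20.1 and 95.4 CPM, above later B cells in each library and again lower in fusion. Whether later B cells transcribe Dntt themselves or hold it from other marrow cells was not tested. Ly6d was at 1906, 1792 and 1042 CPM in later B cells, a smaller fold difference than in the gate, and the interaction was 2.04 ± 0.27 (edgeR adjusted p = 7.26e-11). Ighm was at 3237, 6207 and 10330 CPM in later B cells and differed by 0.96 ± 0.13 (edgeR adjusted p = 4.50e-10). Among division genes, Ube2c was at 366.7, 396.3 and 271.7 CPM in the gate and 180.7, 187.6 and 321.1 CPM in later B cells, with an interaction of 1.25 (edgeR adjusted p = 0.00862). Rag1 and Socs2 had no called interaction. Rag1 stood at 287.4, 164.5 and 94.1 CPM and Socs2 at 36.4, 31.4 and 7.08 CPM in later B cells, where both rose (edgeR adjusted p = 0.0013 and 1.41e-04), as did Rilpl2 and Myh10 (edgeR adjusted p = 9.45e-08 and 8.69e-04). In later B cells alone edgeR called 137 of 8808 genes (1.56%), 49 higher (0.556%) and 88 lower (0.999%), and 789 (8.96%) had an unadjusted p under 0.05. The later B cells come from the same 3 libraries, so the comparisons are not independent. Later B cells also held the plasma cell marker Jchain at 5280, 1161 and 1979 CPM, against 0, 0 and 7.51 CPM in the gate. Mpo was at 871.6, 387.7 and 966.9 CPM in them. The part of transcripts of plasma cells, granulocyte progenitors and other Dntt-holding marrow cells in the interactions was not tested.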

How the data were processed

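The deposited values are raw UMI counts per gene and barcode, made by the authors with Cell Ranger 5.0.1 (5.0.0 per the file headers) after bcl2fastq 2.20.0.422, with GRCm38 as the genome, per the submitters' processing notes. Libraries held 8122 to 9354 barcodes and 93262028 to 111836603 UMIs. The members and gene lists were chosen with earlier results of these data known. Genes named are the 10 per direction with the largest log2 fold change among called genes that reached 20 CPM, did not have wild type between the fusion libraries, and stood at 20% or more of their level over all kept cells. Predicted, mitochondrial, ribosomal protein and antigen receptor genes were left out. Free places went to uncalled genes, and list members and other-cell transcripts are also named. Counts were summed per library and tested with edgeR 4.0.16 (filterByExpr, TMM) in R 4.3.3. DESeq2 1.42.0 was an alternative. Shares used exact permutation tests (scipy 1.17.1) and scrublet ran in scanpy 1.11.5. On simulated data for the gated cells the fit recovered 10%, 73% and 94% of genes changed by 1, 2 and 3 (log2), with 7 false calls among 6070 genes. The simulation gave all genes the same dispersion and changed only genes above a minimum summed count. Its recovery therefore does not describe genes with few UMIs, and its false calls leave out spread that comes from single cells.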

Additional observations from a re-analysis of the deposited data

Results flagged for a closer look

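The genes here are listed because their genotype difference in gated cells differed from that in later B cells by edgeR's interaction term (Benjamini-Hochberg adjusted p under 0.05). Values are log2 interactions, and UMIs are of gated cells in fusion replicate 1, fusion replicate 2 and wild type. Dntt had 3.16 and Ly6d 2.04, with their levels in both gates given above. In later B cells Dntt lay below its level over all kept cells in each library, and its source there was not tested. Arpp21, an RNA-binding regulator, had 5.83 (edgeR adjusted p = 0.00816), on 25, 39 and 59 UMIs in the gate and 0, 0 and 7.59 CPM in later B cells. Sgpl1, which degrades sphingosine phosphate, had 7.30 on 6, 9 and 0 UMIs (edgeR adjusted p = 0.0244), and E330020D12Rik had −4.92 on 1, 1 and 13 UMIs.

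Immunoglobulin genes with few UMIs in the gate were among them. Ighg2b had −13.5 on 0, 0 and 8 UMIs, with 1382, 0 and 4.04 CPM in later B cells. Iglc2 had −9.98 on 0, 0 and 8 UMIs, with 1161, 6258 and 324.1 CPM there. Fitted values with both fusion libraries at 0 depend on the prior count and are no bound. Jchain, a plasma cell marker, was at 5280, 1161 and 1979 CPM in later B cells, and its part here was not tested.

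Neutrophil genes, which other marrow cells hold in plenty, were also among them. Fcnb had 7.11 on 0, 7 and 1 UMIs, Chil3 5.18 on 6, 103 and 7 UMIs, Camp 3.33 on 30, 528 and 73 UMIs, and Retnlg −3.34 on 7, 3 and 197 UMIs. In fusion replicate 2 a single cell held 97.1% of the Chil3 UMIs.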

How the results depend on the processing

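No paired analysis was possible because the labels give the genotypes no shared replicate numbers. The fold of the share stayed between 0.490 and 0.569 over 6 settings and between 0.453 and 0.583 with either fusion library left out. Called genes numbered 20 with the gate at 10 UMIs, 20 with the gate after thinning to 3000 UMIs (8 higher, 12 lower), 19 with equal cells per library, 2 with DESeq2 and 0 in one fit over 5 gates. Leaving out the neutrophil-rich cells, chosen after seeing the data, gave 0. Removing doublets gave 10 higher and 13 lower. Interaction calls fell to 19 with doublets removed and 21 without neutrophil-rich cells. Leaving out a fusion library leaves no residual degree of freedom, so counts were not run for it. Among stage shares, the Mki67 or Top2a difference was −4.81 points thinned to 2000 UMIs and −2.55 to 4.36 with either fusion library left out. Il7r was −3.30 and Igkc −4.76 not thinned. Ighm was 0.421 with the stricter cell filter, 0.639 thinned to 2000 UMIs, 1.72 not thinned and −4.92 to 0.463 with either fusion library left out. With either fusion library left out, the log2 fold change of Camp was −0.047 to 3.69 and of Ngp −0.82 to 3.35 (each negative without fusion replicate 2), and without neutrophil-rich cells that of Ngp was −0.042. Of 364 tested values for 34 named genes, 238 kept direction and side of the threshold, 124 lost the call, 1 gained it (Fos with the gate at 3 UMIs) and 1 changed sign. Of 68 values with a fusion library left out, which have no test, 50 stayed within 1 SE, 16 moved further and 2 changed sign. The causes were not tested. Depth limits genes with few UMIs in 26 to 58 cells.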
